A study of Mus musculus with 9 samples.

Results

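The genes described here are 37 transcripts of the stromal extracellular matrix and of mesenchymal cells, taken by gene symbol from a list of collagens, matrix glycoproteins, proteoglycans, matrix enzymes, surface receptors and actin-linked proteins. They are 37 of the 55421 genes in the deposited count table, and each of the 37 symbols was found there. RNA was sequenced from 9 libraries of mouse CD8+ T cells, with ribosomal RNA removed from total RNA. The question put to these genes was how much RNA of stromal genes each sorted T-cell sample held, and which of the genes were read in T cells that had met no stromal cell.

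The T cells of all 9 libraries were CD8+ cells from the spleen of Pmel Ly5.1 mice, a strain with a transgenic T-cell receptor and the Ly5.1 form of CD45. MitoPositive libraries held T cells kept for 36 h with DM5 cells and then sorted as CD8+ and DsRed+. MitoNegative libraries held T cells kept for 36 h with DM5 cells and sorted as CD8+ and DsRed-. Monoculture libraries held control T cells that had no co-culture. DM5 is 1 immortalised line of bone marrow stromal cells of the BL6 background, with mitochondria labelled by the red protein DsRed, so a stromal result here is a result for that line. Each group had 3 libraries with the replicate letters B, C and D, and the values of a group are given below in that order. Whether a letter stands for a separate animal or culture is not said in the labels, so the spread behind each p-value is that between these libraries and may be technical.

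Stromal cells of the bone marrow build the fibres that hold the tissue together. Collagen chains are assembled in the endoplasmic reticulum, folded with the help of the chaperone that Serpinh1 encodes, secreted and cross-linked by lysyl oxidase, while fibronectin and the matricellular proteins link the fibres to cells. Several mesenchymal surface proteins, such as CD73 (Nt5e) and endoglin (Eng), are also made by some blood cells, so their RNA does not by itself mark a stromal cell.

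Total counts per library ranged from 53546152 to 74722832. Levels are given in CPM, counts scaled to the library size after normalisation by trimmed mean of M-values (TMM), and replicates of a group differed by more than counting error (chi-square over its degrees of freedom, 18.2 to 63.9). All 16 markers of CD8+ T cells had counts, and their summed level was 11776 to 12225 CPM in MitoPositive, 11488 to 11988 CPM in MitoNegative and 12974 to 14902 CPM in monoculture libraries. Summed levels of markers of other cells, in the same order of groups, were 120 to 125, 137 to 148 and 181 to 202 CPM for 12 endothelial markers, with Tie1 and Emcn at 0 counts. For 13 myeloid markers they were 21.1 to 25.1, 22.7 to 29.8 and 17.7 to 24.7 CPM, with S100a8, S100a9 and C1qa at 0. For 11 B-cell markers they were 280.4 to 313 CPM in MitoPositive, 371 to 467 CPM in MitoNegative and 692 to 765 CPM in monoculture libraries, with none at 0. For 10 platelet markers they were 0.486 to 0.851, 0.506 to 0.934 and 0.798 to 2.37 CPM, with Gp9 and Gp1bb at 0. Within monoculture Pf4 and Ppbp were read in the D library alone, at 0.662 and 0.464 CPM. For 7 epithelial markers the sums were 7.38 to 9.68, 7.20 to 10.4 and 5.34 to 9.74 CPM, with Krt8 and Krt14 at 0. Single genes made up most of several of these sums, with means given in the same order of groups. Pecam1 stood at 121, 141 and 191 CPM in the endothelial sum, and Ighm at 271, 388 and 630 CPM in the B-cell sum. Itga2b stood at 0.599, 0.582 and 0.765 CPM in the platelet sum. Cdh1 stood at 5.90, 5.71 and 1.52 CPM in the epithelial sum, where Epcam was the highest in monoculture, at 5.20 CPM. The part of these other cell types in the results below was not tested.

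The 37 genes fell into 2 classes by their monoculture level. In monoculture 32 genes averaged under 0.5 CPM and are called near 0, and 5 genes, Thbs1, Mmp14, Nt5e, Eng and Tpm1, averaged more and are called detected. The genes nearest the threshold were Col1a1 at 0.430 CPM and Pdgfrb at 0.386 CPM below it, and Mmp14 at 2.0 CPM above it. Of the 32 near-0 genes 16 had no count in the 3 monoculture libraries together, 5 had 1 to 3 counts and 11 had more. A count of 0 over the group allows up to 3 counts, or 0.0165 CPM, and covers counting error only.

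**Figure D1:**
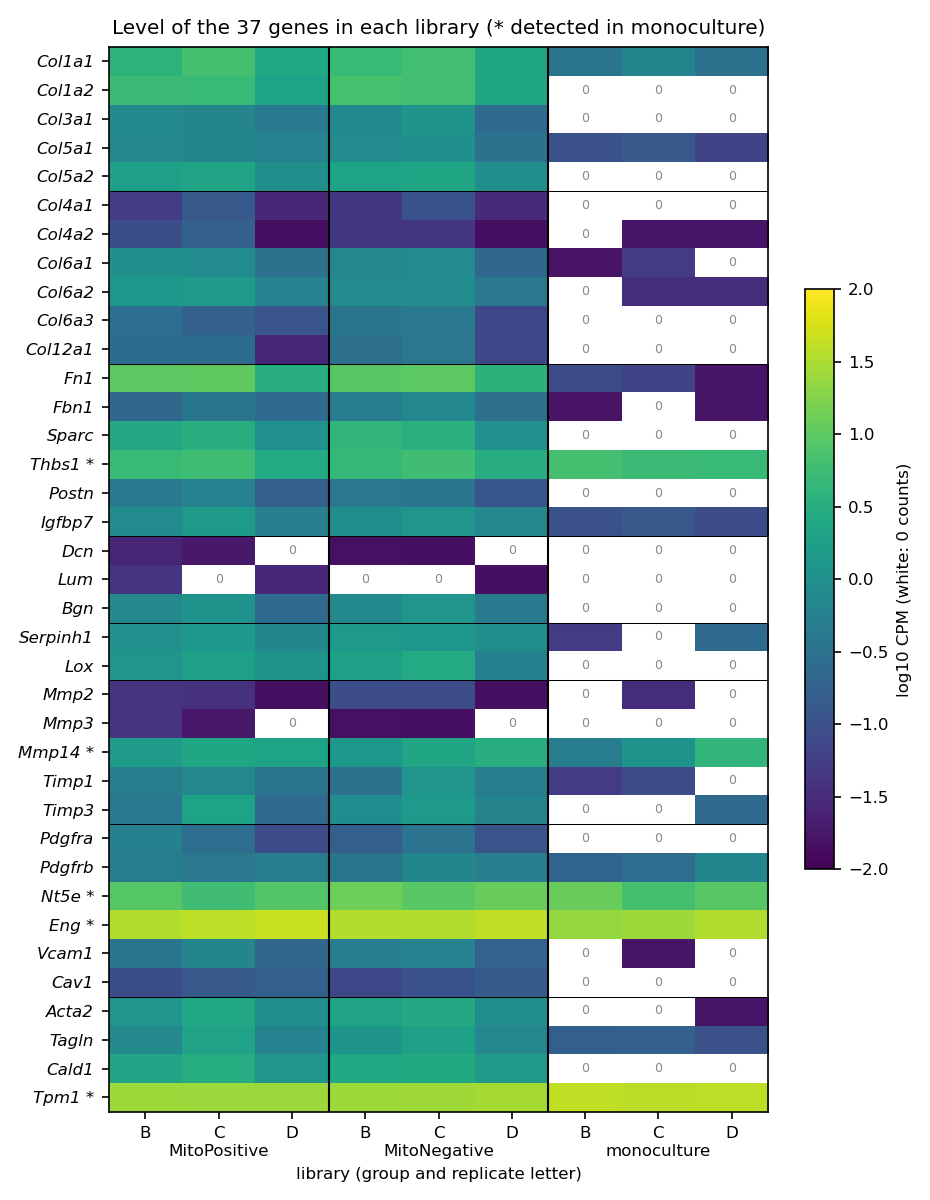
Level of each of the 37 genes (rows, grouped by role) in each of the 9 libraries (columns, by group and replicate letter), as log10 CPM on a colour scale, with white cells for 0 counts and an asterisk for the 5 genes detected in monoculture. The 16 genes with no count in monoculture are white across its 3 columns, while Eng and Tpm1 are bright in all 9 libraries.

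The summed level of the 32 near-0 genes was 39.1, 50.1 and 19.3 CPM in MitoPositive, 45.3, 51.7 and 19.7 CPM in MitoNegative and 1.11, 1.63 and 1.84 CPM in monoculture libraries. The means were 36.1 ± 15.6, 38.9 ± 16.9 and 1.53 ± 0.373 CPM (SD, n = 3 each). These sums rest on 2963, 2681 and 1384 counts in MitoPositive, 3044, 3610 and 1328 counts in MitoNegative and 68, 98 and 111 counts in monoculture libraries. Every co-cultured library stood above every monoculture library, and the sorted groups overlapped. The threshold was set on monoculture, so the low monoculture sum follows from the choice and is a description. Whether these reads came from stromal cells or from the T cells was not tested, and in bulk samples fewer cells of a type and less RNA per cell cannot be told apart.

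Within each letter the ratio of the MitoPositive to the MitoNegative sum was 0.863 for B, 0.968 for C and 0.981 for D. The sum was thus the lower in the DsRed+ library in each of the 3 letters, with no test made of it. The letter moved the sum more than the sort did: without D the group means were 44.6 CPM in MitoPositive and 48.5 CPM in MitoNegative libraries.

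**Figure D2:**
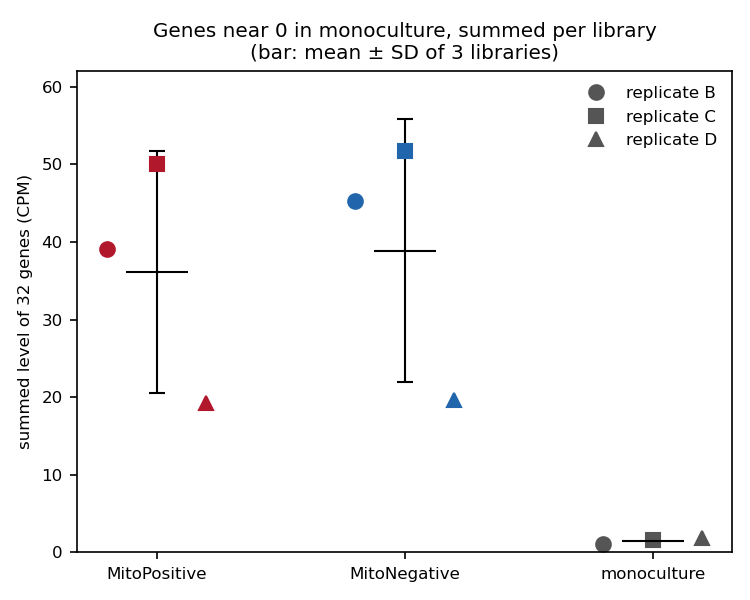
Summed level in CPM (vertical axis) of the 32 genes near 0 in monoculture, for each library of the MitoPositive, MitoNegative and monoculture groups, with symbols for replicate letters and bars for the mean ± SD of 3 libraries. The letter D library is the lowest of both sorted groups, at 19.3 and 19.7 CPM, and the monoculture libraries lie between 1.11 and 1.84 CPM.

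Between MitoPositive and MitoNegative cells none of the 30 genes that passed the filter on low counts was called by edgeR's quasi-likelihood test at an adjusted p of 0.05, against 0.165% of all 15711 genes tested (0.0891% higher and 0.0764% lower). At an unadjusted p under 0.05 there were 2 genes, Fbn1 and Nt5e, and DESeq2 and limma voom also called 0. The shares of all genes under these rules are not given, so these counts are a description only. When edgeR was fitted without monoculture and with the letter as a block, 3 genes were called, Eng and Col6a2 higher and Nt5e lower in MitoPositive cells, against 18.2% of all genes tested in that fit. The median log2 fold change of the 30 genes was -0.16, against -0.00 over all genes, with 6 genes higher and 24 lower in MitoPositive cells by sign. Among the 25 tested near-0 genes 5 were higher and 20 lower by sign, with a median of -0.17. Libraries of the sorted groups did not overlap for 2 of the 37 genes, Nt5e and Tpm1, both lower in MitoPositive cells, against 20% of all genes tested that did not overlap in either direction and 9.55% that were lower. The near-0 genes overlapped between the sorted groups in all 32 cases.

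The 7 genes under the filter were Col4a1, Col4a2, Dcn, Lum, Mmp2, Mmp3 and Cav1. Fitted without the letter, the standard error of the log2 fold change of the near-0 genes tested ran from 0.339 to 0.939. In that fit the 95% interval of the difference included 0 for 28 of the 30 genes, all but Fbn1 and Nt5e. For Fn1 it ran from -1.10 to 1.17 on the log2 scale. With the letter as a block the standard error was smaller for every near-0 gene tested, from 0.104 for Fn1 to 0.755 for Timp3. The difference in that fit was 0.0062 ± 0.104 for Fn1 and -0.23 ± 0.132 for Col1a2, and no near-0 gene was called. The width of the intervals without the letter thus includes the spread between letters.

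**Figure D3:**
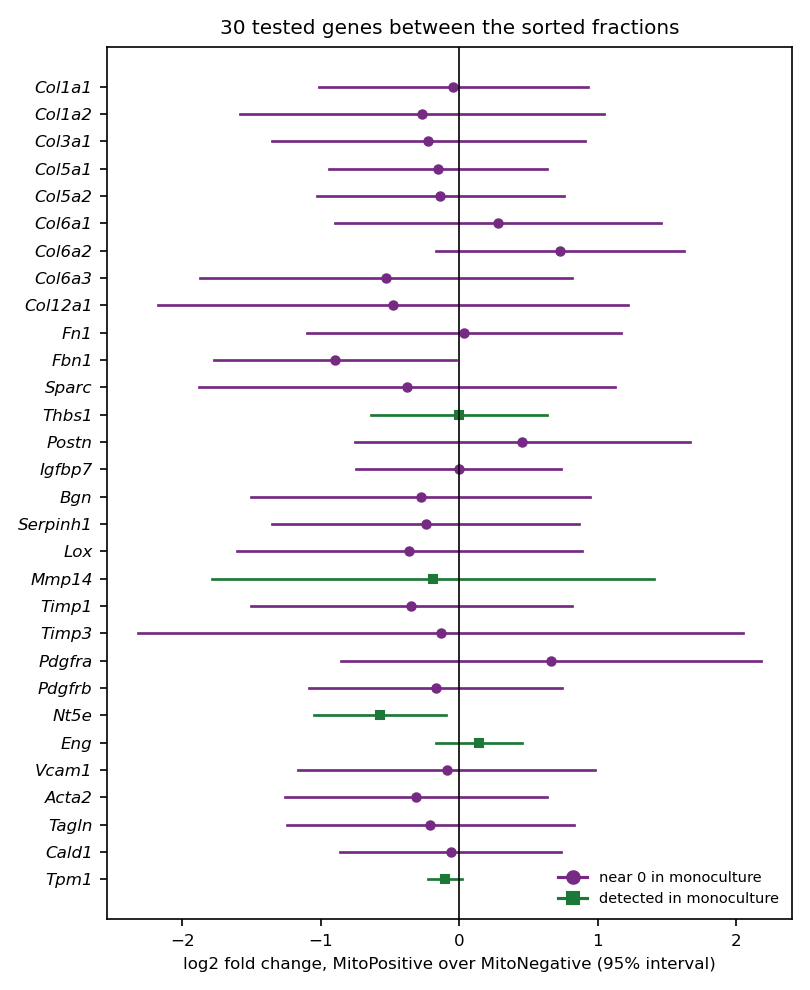
Log2 fold change of MitoPositive over MitoNegative cells (horizontal axis) with its 95% interval from edgeR fitted without the letter, for each of the 30 genes tested. Circles are genes near 0 in monoculture and squares those detected there. Intervals of the near-0 genes are wide and, except for Fbn1, cross 0, while Nt5e lies below 0 at -0.57 and Tpm1 has the narrowest interval.

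Between co-cultured cells and monoculture, edgeR's quasi-likelihood test called 24 of the 30 genes higher and 1 lower in MitoPositive cells, against 42.2% of all genes called, 22.3% higher and 19.9% lower. In MitoNegative cells it called 24 higher and 1 lower, against 38.9% of all genes called, 20.6% higher and 18.3% lower. The median log2 fold change of the 30 genes was 5.26 in MitoPositive and 5.08 in MitoNegative cells, against 0.00 and 0.01 over all genes. By libraries 27 of the 37 genes stood above, 1 below and 9 overlapped monoculture in each sorted group, where 51.6% of all genes tested did not overlap monoculture in MitoPositive cells (27.3% above it) and 48.7% in MitoNegative cells (25.9% above it). With the letter as a block 26 and 27 of the 30 genes were called in MitoPositive and MitoNegative cells, against 47.8% and 44.9% of all genes. Both comparisons use the same monoculture libraries. Genes that passed the filter only through co-cultured libraries had to differ from monoculture, so these counts and medians describe the genes and support nothing further.

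Both chains of type I collagen, the main fibre of connective tissue, were read in all 6 co-cultured libraries. Col1a1 (chr11:94936224-94953042, plus strand), which encodes the alpha 1 chain, stood at 3.84, 6.52 and 2.54 CPM in MitoPositive, 4.91, 6.06 and 2.25 CPM in MitoNegative and 0.344, 0.632 and 0.315 CPM in monoculture libraries. All co-cultured libraries were above monoculture, and the sorted groups overlapped. By edgeR's test Col1a1 rose 9.91-fold over monoculture in MitoPositive cells (log2 3.31 ± 0.513 SE, adjusted p = 0.000882) and 10.2-fold in MitoNegative cells (3.35 ± 0.513, adjusted p = 0.000989), and its difference between the sorted groups was -0.04 ± 0.428 (adjusted p = 0.985).

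Col1a2 (chr6:4504814-4541544, plus strand), which encodes the alpha 2 chain of the same fibre, stood at 5.35, 5.19 and 2.09 CPM in MitoPositive, 6.92, 6.06 and 2.21 CPM in MitoNegative and 0, 0 and 0 CPM in monoculture libraries. Over the floor of 3 counts for the monoculture group, it was 251-fold higher in MitoPositive and 307-fold higher in MitoNegative cells. For this and later folds over the floor, counts and library sizes were pooled over the 3 libraries of each group. They allow for counting error in monoculture only, not for that of the co-cultured level or for the spread between libraries. In monoculture the chains parted: Col1a1 had 78 counts there and Col1a2 none. Co-cultured libraries held 1727 counts of Col1a1 and 1871 of Col1a2, a ratio at which 78 counts of Col1a1 would go with 84.5 counts of Col1a2. Per kilobase of exon, the CPM of Col1a1 over that of Col1a2 was 1.36, 2.38 and 2.30 in MitoPositive and 1.34, 1.89 and 1.93 in MitoNegative libraries.

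Col3a1, the chain of the fine type III fibres, stood at 0.830, 0.672 and 0.432 CPM in MitoPositive, 0.833, 1.17 and 0.252 CPM in MitoNegative and 0 CPM in all 3 monoculture libraries, 39.1-fold and 45.9-fold over the floor. Col5a2, a chain of the type V collagen that controls fibre width, stood at 1.79, 2.17 and 0.948 CPM in MitoPositive and 2.08, 2.33 and 0.949 CPM in MitoNegative libraries and had no monoculture count. Its partner chain Col5a1 had 18 counts in monoculture and averaged 0.657 ± 0.0512, 0.730 ± 0.360 and 0.0992 ± 0.0334 CPM in MitoPositive, MitoNegative and monoculture libraries (SD, n = 3 each). In both types I and V, then, 1 chain had no monoculture count and its partner was read there at a low level.

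The basement membrane chains Col4a1 and Col4a2 had few counts, which summed to 13 and 17 over the 3 MitoPositive libraries, 12 and 7 over the MitoNegative libraries and 0 and 2 in monoculture. These neighbouring genes overlap on opposite strands, so reads there cannot be told apart where counting ignored strand. Of type VI, a beaded microfibril around cells, Col6a1 averaged 0.725 ± 0.374, 0.594 ± 0.328 and 0.0221 ± 0.0254 CPM in MitoPositive, MitoNegative and monoculture libraries, and Col6a3 averaged 0.190 ± 0.0912, 0.277 ± 0.177 and 0 CPM (SD, n = 3 each). Col6a2 stood at 1.36, 1.57 and 0.586 CPM in MitoPositive, 0.848, 0.859 and 0.400 CPM in MitoNegative and 0, 0.0333 and 0.0331 CPM in monoculture libraries. MitoPositive was the higher in each letter for Col6a2, but the groups overlapped and edgeR's test did not call it (log2 0.73 ± 0.409, adjusted p = 0.597). With the letter as a block it was not called either (adjusted p = 0.241), while edgeR fitted without monoculture and with that block did call it (0.72, adjusted p = 0.0200). Col12a1, which decorates the surface of collagen fibres, averaged 0.184 ± 0.135 CPM in MitoPositive and 0.253 ± 0.161 CPM in MitoNegative libraries (SD, n = 3 each) and had no monoculture count.

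Fn1 (chr1:71585520-71653200, minus strand) encodes fibronectin, the glycoprotein that cells grip through integrins. It stood at 9.67, 10.0 and 3.28 CPM in MitoPositive, 9.04, 9.65 and 3.66 CPM in MitoNegative and 0.0819, 0.0665 and 0.0166 CPM in monoculture libraries. Both sorted groups were far above monoculture and overlapped each other. By edgeR's test Fn1 was 134-fold higher than monoculture in MitoPositive cells (log2 7.07 ± 0.815, adjusted p = 0.000293) and 131-fold higher in MitoNegative cells (7.03 ± 0.815, adjusted p = 0.000386), where monoculture held 10 counts in all. Fn1 passed the filter on low counts only through co-cultured libraries, so these values describe it and support nothing further.

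Sparc (chr11:55394500-55423183, minus strand), a matricellular protein that binds collagen, stood at 2.60, 3.21 and 1.05 CPM in MitoPositive and 4.36, 3.45 and 1.05 CPM in MitoNegative libraries and at 0 in monoculture. It was 134-fold over the floor in MitoPositive and 179-fold over it in MitoNegative cells. Postn, another matricellular protein, had no monoculture count and was 22.9-fold and 17.2-fold over the floor in MitoPositive and MitoNegative cells. Fbn1, which encodes the microfibril protein fibrillin-1, stood at 0.211, 0.355 and 0.251 CPM in MitoPositive, 0.476, 0.730 and 0.296 CPM in MitoNegative and 0.0164, 0 and 0.0166 CPM in monoculture libraries. It was lower in MitoPositive cells in each letter, but not past the adjusted threshold of edgeR's test (log2 -0.90 ± 0.400, adjusted p = 0.461). Igfbp7, a secreted binder of insulin-like growth factors, averaged 0.965 ± 0.484, 0.955 ± 0.246 and 0.105 ± 0.0257 CPM in MitoPositive, MitoNegative and monoculture libraries (SD, n = 3 each). It overlaps Polr2b, which held 65237 counts, on the opposite strand.

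The small leucine-rich proteoglycans, which coat collagen fibres, differed among themselves. Bgn (biglycan) stood at 0.751, 1.08 and 0.251 CPM in MitoPositive and 0.818, 1.23 and 0.445 CPM in MitoNegative libraries with no monoculture count, 40.0-fold and 50.6-fold over the floor. Dcn (decorin) had 3 counts over the MitoPositive and 2 over the MitoNegative libraries, and Lum (lumican) had 5 and 1, with none in monoculture for either gene. Per kilobase of exon the mean level in co-cultured libraries was 0.125 CPM for Bgn, 0.00212 CPM for Dcn and 0.00560 CPM for Lum. Decorin and lumican, common markers of fibroblasts, were at the limit of detection where biglycan was not.

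Serpinh1, the collagen chaperone HSP47, averaged 1.02 ± 0.354 CPM in MitoPositive, 1.20 ± 0.224 CPM in MitoNegative and 0.0992 ± 0.132 CPM in monoculture libraries (SD, n = 3 each). In monoculture it had 3, 0 and 15 counts, so the D library held most of them. Lox, which encodes lysyl oxidase, the enzyme that cross-links collagen, stood at 1.21, 1.81 and 1.09 CPM in MitoPositive and 1.84, 2.84 and 0.563 CPM in MitoNegative libraries and at 0 in monoculture. It was 80.3-fold over the floor in MitoPositive and 107-fold over it in MitoNegative cells.

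Of the 3 matrix proteases Mmp14, a membrane-anchored protease that activates the Mmp2 enzyme, was detected in monoculture. It stood at 1.63, 2.24 and 2.08 CPM in MitoPositive, 1.37, 2.32 and 3.08 CPM in MitoNegative and 0.492, 1.18 and 4.32 CPM in monoculture libraries. The monoculture libraries held the lowest and the highest value of the 9, so all groups overlapped and edgeR's test called no difference (adjusted p = 0.991 for MitoPositive and 0.867 for MitoNegative against monoculture). Without the monoculture D library Mmp14 was called higher in both, by 1.25 in MitoPositive (adjusted p = 0.0359) and 1.44 in MitoNegative cells (adjusted p = 0.0220) on the log2 scale. Mmp2 had 6, 13 and 2 counts over the MitoPositive, MitoNegative and monoculture groups, and Mmp3, a secreted stromelysin, had 4, 2 and 0.

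The inhibitors of these proteases were both near 0 in monoculture. Timp1 averaged 0.537 ± 0.195, 0.673 ± 0.477 and 0.0441 ± 0.0418 CPM in MitoPositive, MitoNegative and monoculture libraries (SD, n = 3 each), and overlaps Syn1 (242 counts) on the opposite strand. Timp3, which stays bound to the matrix, stood at 0.409, 2.07 and 0.237 CPM in MitoPositive, 0.892, 1.39 and 0.608 CPM in MitoNegative and 0, 0 and 0.232 CPM in monoculture libraries. Its 14 monoculture counts all came from the D library, whose value lay just under the lowest co-cultured value. The test of edgeR did not call Timp3 against monoculture in MitoPositive (log2 3.48 ± 1.28, adjusted p = 0.0616) or MitoNegative cells (3.61 ± 1.26, adjusted p = 0.0558), and with the replicate letter as a block it called both (3.18 ± 1.11, adjusted p = 0.0492, and 3.57 ± 1.08, adjusted p = 0.0311). Timp3 was also called in both with total counts as the scale (adjusted p = 0.0418 and 0.0383), by limma voom (0.0297 and 0.0142) and by edgeR without the monoculture D library (0.0390 and 0.0385). Timp3 passed the filter on low counts only through co-cultured libraries, so these calls describe it and support nothing further. It overlaps Syn3, with 20 counts, on the opposite strand.

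The receptors for platelet-derived growth factor, which drives the growth of mesenchymal cells, differed from each other. Pdgfra stood at 0.580, 0.280 and 0.0837 CPM in MitoPositive and 0.164, 0.329 and 0.104 CPM in MitoNegative libraries and at 0 in monoculture. Pooled over libraries it was 19.6-fold and 12.1-fold over the floor, with the D libraries closest to the floor. Pdgfrb stood at 0.488, 0.392 and 0.502 CPM in MitoPositive, 0.357, 0.687 and 0.519 CPM in MitoNegative and 0.197, 0.266 and 0.695 CPM in monoculture libraries. For Pdgfrb the highest value of all was the monoculture D library, the groups overlapped, and edgeR's test called no difference from monoculture (adjusted p = 0.659 in MitoPositive and 0.463 in MitoNegative cells). Without that library it was called higher in MitoNegative cells (log2 1.18, adjusted p = 0.0293).

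Vcam1, an adhesion molecule that holds blood cells to marrow stroma, had 78 and 88 counts over the MitoPositive and MitoNegative groups and 1 in monoculture. Its ratio to monoculture was 70.4 (95% counting interval 12.3 to 2816) in MitoPositive and 78.1 (13.7 to 3119.6) in MitoNegative cells. Cav1, the coat protein of caveolae, had 26 and 22 counts in MitoPositive and MitoNegative libraries and none in monoculture, 7.82-fold and 6.51-fold over the floor. By libraries Cav1 had 7, 7 and 12 counts in MitoPositive and 5, 7 and 10 counts in MitoNegative cells. Its level was thus highest in the D library of both sorted groups, unlike most near-0 genes. These are few counts, and the difference between letters was not tested.

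Eng (chr2:32646595-32682669, plus strand) encodes endoglin, a co-receptor for ligands of the TGF-beta family. Of the 37 genes it had the highest level per kilobase of exon, at 9.53 CPM per kilobase in co-cultured cells. Its level was 35.2, 39.8 and 46.5 CPM in MitoPositive, 34.3, 34.6 and 41.1 CPM in MitoNegative and 23.7, 25.6 and 33.4 CPM in monoculture libraries. Each co-cultured library was above every monoculture library, though the lowest MitoNegative value was close to the monoculture D value, and D was the highest library of each group. By edgeR's test Eng rose 1.47-fold over monoculture in MitoPositive cells (log2 0.56 ± 0.141, adjusted p = 0.00993) and 1.33-fold in MitoNegative cells (0.41 ± 0.141, adjusted p = 0.0423). The call in MitoNegative cells was lost without any one of the MitoNegative libraries B, C or D (adjusted p = 0.0522, 0.0567 and 0.139), monoculture B or C (0.136 and 0.128) or MitoPositive C (0.0658), without both co-cultured D libraries (0.0958) and with no filter on low counts (0.0986). With the letter as a block it was 0.000264. Between the sorted groups Eng differed by 0.14 ± 0.140 (adjusted p = 0.799), and edgeR fitted without monoculture and with the block called it higher in MitoPositive cells (0.14, adjusted p = 0.0246). Eng overlaps Fpgs, with 7978 counts against 20637 for Eng, on the opposite strand.

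Nt5e (chr9:88327197-88372092, plus strand) encodes CD73, the surface enzyme that makes adenosine from AMP. Its level was 8.84, 5.98 and 8.41 CPM in MitoPositive, 13.1, 9.61 and 11.9 CPM in MitoNegative and 11.6, 6.50 and 9.21 CPM in monoculture libraries. Every MitoPositive library was below every MitoNegative library, and C was the lowest letter of each group. By edgeR's test without the letter, Nt5e did not pass between the sorted groups (log2 -0.57 ± 0.214, adjusted p = 0.371). With the letter as a block it was the 1 gene of the 30 called, lower in MitoPositive cells by -0.58 ± 0.0928 (adjusted p = 0.0144), against 2.34% of all genes called in that fit. Against monoculture it differed by -0.23 ± 0.215 in MitoPositive (adjusted p = 0.428) and 0.34 ± 0.214 in MitoNegative cells (adjusted p = 0.235), and with the block it was called higher in MitoNegative cells (0.37 ± 0.0923, adjusted p = 0.00809).

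Thbs1, which encodes the matricellular protein thrombospondin-1, was the 1 matrix glycoprotein of the list detected in monoculture. It stood at 5.09, 5.70 and 2.76 CPM in MitoPositive, 4.60, 5.84 and 3.08 CPM in MitoNegative and 6.64, 5.35 and 4.90 CPM in monoculture libraries. The groups overlapped, D was the lowest library in each, and edgeR's test called no difference from monoculture (adjusted p = 0.397 in MitoPositive and 0.411 in MitoNegative cells).

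The actin-linked genes held both classes. Acta2, smooth muscle actin, a mark of contractile stroma, stood at 1.20, 2.41 and 0.921 CPM in MitoPositive, 2.02, 2.63 and 0.904 CPM in MitoNegative and 0, 0 and 0.0166 CPM in monoculture libraries, where it had 1 count. Its ratio to monoculture was 258 (95% counting interval 46.0 to 10232) in MitoPositive and 338 (60.3 to 13391) in MitoNegative cells. Cald1, which encodes the actin binder caldesmon, stood at 2.16, 2.99 and 1.21 CPM in MitoPositive and 2.45, 2.74 and 1.41 CPM in MitoNegative libraries and had no monoculture count, 124-fold and 133-fold over the floor. Tagln, the actin cross-linker transgelin, averaged 1.12 ± 0.780, 1.27 ± 0.608 and 0.143 ± 0.0380 CPM in MitoPositive, MitoNegative and monoculture libraries (SD, n = 3 each), and overlaps Pcsk7 (21399 counts) on the opposite strand.

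Tpm1 (chr9:67022590-67049406, minus strand), an actin-filament tropomyosin made by many cell types, was the 1 gene of the 37 that fell. It stood at 25.8, 25.1 and 25.2 CPM in MitoPositive, 26.3, 26.8 and 28.7 CPM in MitoNegative and 40.8, 38.7 and 39.4 CPM in monoculture libraries. No co-cultured library reached the lowest monoculture library. By edgeR's test it fell to 0.640 of the monoculture level in MitoPositive cells (log2 -0.64 ± 0.0576, adjusted p = 5.75e-06) and to 0.688 of it in MitoNegative cells (-0.54 ± 0.0574, adjusted p = 2.93e-05). The sorted groups differed by -0.10 ± 0.0576, which did not pass (adjusted p = 0.590).

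**Figure D4:**
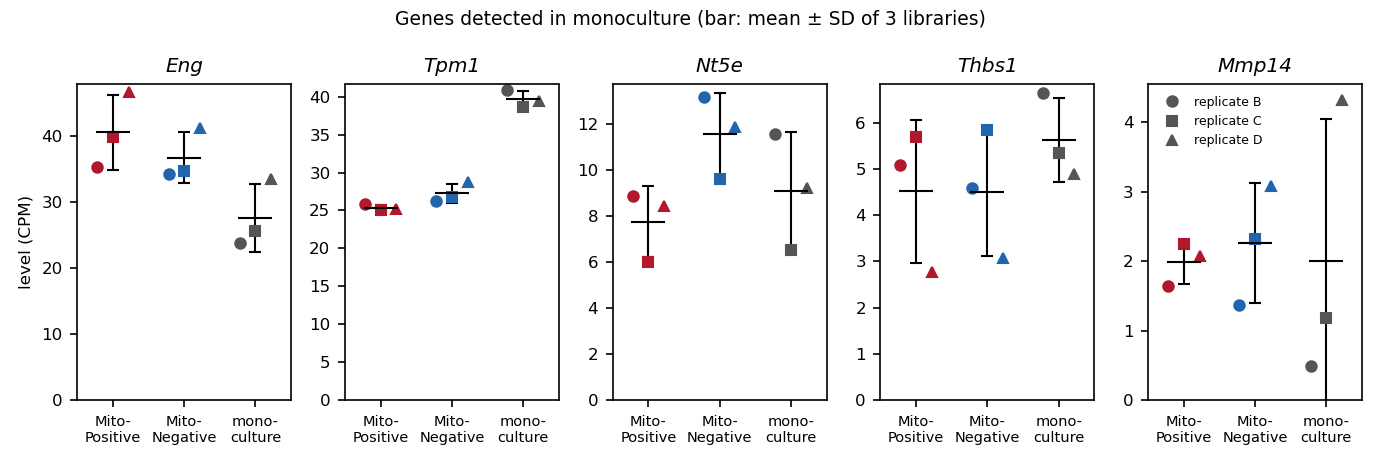
Level in CPM (vertical axes, each from 0) of the 5 genes detected in monoculture, for each MitoPositive, MitoNegative and monoculture library, with symbols for replicate letters and bars for the mean ± SD of 3 libraries. Eng is higher and Tpm1 lower in all co-cultured libraries than in monoculture, Nt5e is lowest in MitoPositive libraries of each letter, and the monoculture values of Mmp14 run from 0.492 to 4.32 CPM.

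Across the 25 tested near-0 genes the log2 mean CPM of MitoPositive and MitoNegative cells had a Pearson r of 0.966 and a Spearman rho of 0.957, as a description over genes that share gene length, library depth and co-culture. Uncorrected for length, the 6 genes with the highest CPM made up 61.5% of the summed level in MitoPositive and 61.4% in MitoNegative cells, and Fn1 made up 21.2% and 19.2% of it. Some smaller shares differed more between MitoPositive and MitoNegative cells, at 3.24% and 1.81% for Col6a2, 1.09% and 0.728% for Postn, 0.870% and 0.512% for Pdgfra and 0.753% and 1.29% for Fbn1. Per kilobase of exon the highest near-0 levels in co-cultured cells were those of Igfbp7 at 0.794, Acta2 at 0.766, Sparc at 0.691, Timp1 at 0.681, Col1a1 at 0.663 and Fn1 at 0.647 CPM per kilobase, where Igfbp7 and Timp1 overlap other genes.

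The letter D libraries of both sorted fractions stood apart. D had the lowest level of the 3 letters for 23 of the 25 tested near-0 genes in MitoPositive and for 23 of 25 in MitoNegative cells. The median of D over the mean of B and C was 0.463 in MitoPositive and 0.411 in MitoNegative cells, against 0.998 and 1.0 over all genes tested. Among the genes detected in monoculture the same ratio was 1.24 and 1.19 for Eng, 0.992 and 1.08 for Tpm1, 1.14 and 1.04 for Nt5e, 1.07 and 1.67 for Mmp14 and 0.512 and 0.591 for Thbs1 in MitoPositive and MitoNegative cells. Thbs1 was thus low in D like most near-0 genes. Pdgfrb, at 1.14 and 0.993, was the tested near-0 gene with the highest ratio in both.

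Of 20 stromal markers outside the 37 genes, D was strictly the lowest letter for 13 in MitoPositive and 10 in MitoNegative cells, with 2 markers at 0 counts in each. Alcam, at a mean of 17.2 CPM in monoculture, was among them in both fractions. Ly6a was among them in MitoPositive cells, at 669.477 CPM in D and 669.526 CPM in C. The share of all genes with D lowest is not given, so these counts are a description only. Cxcl12, a chemokine of marrow stroma, stood at 1.88, 2.04 and 0.377 CPM in MitoPositive, 1.80, 1.39 and 0.222 CPM in MitoNegative and 0 CPM in all 3 monoculture libraries. Prrx1, a mesenchymal transcription factor, stood at 0.975, 0.523 and 0.167 CPM in MitoPositive, 0.863, 0.673 and 0.267 CPM in MitoNegative and 0, 0 and 0.0331 CPM in monoculture libraries. For both markers, chosen after their values were seen, D was the lowest letter of each sorted fraction. Gja1, which encodes the gap junction protein connexin 43, stood at 0.580, 1.05 and 0.725 CPM in MitoPositive and 0.788, 0.516 and 0.711 CPM in MitoNegative libraries, with D between the others in both. The whole list of 20 such markers summed to 690.3 to 1019 CPM in MitoPositive, 575 to 843 CPM in MitoNegative and 325 to 453 CPM in monoculture libraries, with none at 0 counts over all libraries. Ly6a, which T cells also express, made up most of that sum, at means of 777 CPM in MitoPositive, 654 CPM in MitoNegative and 382 CPM in monoculture libraries. Without the 2 co-cultured D libraries edgeR's test called 0 of the 30 genes between MitoPositive and MitoNegative cells, and it called 26 in MitoPositive and 24 in MitoNegative cells against monoculture.

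**Figure D5:**
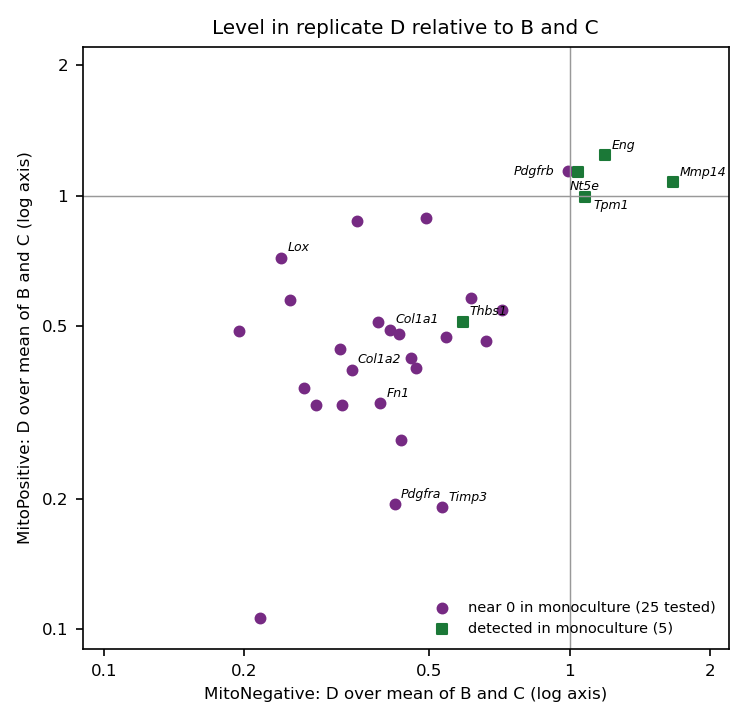
Level in the letter D library over the mean of letters B and C, in MitoPositive (vertical, log axis) against MitoNegative cells (horizontal, log axis), for 25 tested genes near 0 in monoculture (circles) and 5 detected there (squares), with grey lines at 1. Most circles lie at the lower left, with medians of 0.463 and 0.411, while Eng, Tpm1, Nt5e and Mmp14 lie near or above 1.

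Promoter sequence is shown for 3 genes of contrasting pattern, chosen after their values were seen. Col3a1 and Cald1 had no monoculture count and were low in letter D, and Eng was detected in all libraries. Each run is the 250 bases before the RefSeq start nearest the deposited gene start, 5′ to 3′ on the gene's strand in GRCm38.p6, and capitals mark the CCAAT motif, the TATAAA motif or the GGGCGG motif on either strand. They lie at chr1:45311288-45311537 for Col3a1, chr6:34598254-34598503 for Cald1 and chr2:32646345-32646594 for Eng, all on the plus strand.
Col3a1: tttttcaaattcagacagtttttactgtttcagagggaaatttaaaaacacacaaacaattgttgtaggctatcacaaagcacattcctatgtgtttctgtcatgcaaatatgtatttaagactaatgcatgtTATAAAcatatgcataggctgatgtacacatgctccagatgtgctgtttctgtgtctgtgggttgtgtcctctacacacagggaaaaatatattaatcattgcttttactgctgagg
Cald1: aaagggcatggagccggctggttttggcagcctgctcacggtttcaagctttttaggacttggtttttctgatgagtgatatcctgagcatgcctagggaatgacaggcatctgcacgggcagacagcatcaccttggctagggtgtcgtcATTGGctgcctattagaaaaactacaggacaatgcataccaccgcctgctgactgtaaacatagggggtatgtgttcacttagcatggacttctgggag
Eng: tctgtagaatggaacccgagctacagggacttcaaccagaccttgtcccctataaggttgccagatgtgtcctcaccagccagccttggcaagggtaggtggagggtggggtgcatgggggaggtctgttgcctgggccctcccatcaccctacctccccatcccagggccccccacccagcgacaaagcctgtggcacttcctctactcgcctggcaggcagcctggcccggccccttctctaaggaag
Col3a1 held TATAAA, whose first base lay 117 bases before the start, and no CpG. Cald1 held CCAAT on the reverse strand, 99 bases before the start, with 5 CpG. Eng held none of the 3 motifs, with 4 CpG. Over 32851 RefSeq promoters of the same length the median was 6 CpG, and CCAAT was in 33.8%, TATAAA in 12.4% and GGGCGG in 32.7%. Of the 25 genes with a RefSeq promoter here 7 held CCAAT, 5 TATAAA and 14 GGGCGG at any of their starts, and a match is a description of letters only. The shares are of single promoters and these counts are of genes with any number of starts, so they cannot be compared.

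Further genes that make, cut, hold or bind matrix were taken from 6 lists. In collagen synthesis and cross-linking, edgeR's test called 13 of 20 tested genes higher and 2 lower in MitoPositive cells than in monoculture (65% and 10%, against 22.3% and 19.9% of all genes), and 12 and 2 in MitoNegative cells (60% and 10%, against 20.6% and 18.3% of all genes). Of the 20 genes 2 had no monoculture count. The median log2 fold change was 0.66 and 0.40, against 0.00 and 0.01 over all genes. P4ha2, a subunit of the enzyme that hydroxylates proline in collagen, averaged 2.53 ± 0.399, 1.63 ± 0.437 and 0.248 ± 0.0303 CPM in MitoPositive, MitoNegative and monoculture libraries (SD, n = 3 each). By edgeR's test it rose 10.2-fold in MitoPositive (adjusted p = 2.17e-06) and 6.52-fold in MitoNegative cells (adjusted p = 1.61e-05). Adamts14, which trims procollagen, rose 5.24-fold and 4.25-fold in MitoPositive and MitoNegative cells.

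Of 26 other matrix structural genes tested, 19 rose and 1 fell in MitoPositive cells and 21 rose and 1 fell in MitoNegative cells against monoculture by edgeR's test, with median log2 fold changes of 2.41 and 2.26. The shares higher were 73.1% and 80.8%, against 22.3% and 20.6% of all genes, but 6 of the 26 genes had no monoculture count and passed the filter only through co-cultured libraries. Thbs2, another thrombospondin, averaged 2.22 ± 1.34 CPM in MitoPositive and 2.03 ± 1.27 CPM in MitoNegative libraries (SD, n = 3 each), with no count in monoculture. Among 22 other proteases and inhibitors 8 rose and 5 fell in MitoPositive cells and 6 rose and 4 fell in MitoNegative cells, with medians of 0.32 and 0.30. In MitoPositive cells 36.4% were higher and 22.7% lower, against 22.3% and 19.9% of all genes, and in MitoNegative cells 27.3% were higher and 18.2% lower, against 20.6% and 18.3%. Adam8, a membrane protease of leukocytes and other cells, averaged 96.7 ± 19.5, 53.3 ± 4.62 and 6.86 ± 1.24 CPM in MitoPositive, MitoNegative and monoculture libraries (SD, n = 3 each). Adam10, a sheddase of surface proteins, fell to 0.685 of the monoculture level in MitoPositive and 0.689 of it in MitoNegative cells.

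Of 27 other contractile and cytoskeletal genes 12 rose and 10 fell in MitoPositive cells and 10 rose and 11 fell in MitoNegative cells against monoculture by edgeR's test, with medians of 0.01 and 0.02. The shares called were 81.5% in MitoPositive and 77.8% in MitoNegative cells, against 42.2% and 38.9% of all genes. Actn1, the actin cross-linker alpha-actinin-1, averaged 208 ± 21.6, 265 ± 15.4 and 669 ± 104 CPM in MitoPositive, MitoNegative and monoculture libraries (SD, n = 3 each). It fell to 0.311 of the monoculture level in MitoPositive and 0.396 of it in MitoNegative cells. Flna, which encodes filamin A, fell to 0.573 and 0.491 of that level, while Tpm4, another tropomyosin, rose 1.79-fold and 1.54-fold in MitoPositive and MitoNegative cells.

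In the TGF-beta pathway, which drives matrix genes in many cells, edgeR's test called 9 of 22 genes higher and 4 lower in MitoPositive cells, and 9 higher and 3 lower in MitoNegative cells, than in monoculture, with medians of 0.23 and 0.25. The share higher was 40.9% in both, against 22.3% and 20.6% of all genes, and the shares lower were 18.2% and 13.6%, against 19.9% and 18.3%. Ltbp3, which tethers latent TGF-beta to matrix, rose 5.45-fold and 4.16-fold, while the receptor Tgfbr1 fell to 0.648 and 0.630 of the monoculture level in MitoPositive and MitoNegative cells. Of 24 integrins and matrix receptors 7 rose and 4 fell in MitoPositive cells and 6 rose and 5 fell in MitoNegative cells, with medians of 0.01 and 0.20. The share called was 45.8% in each, near the 42.2% and 38.9% of all genes. With the letter as a block 8 of the 24 fell in MitoNegative cells, against 21.5% of all genes called lower in that fit. Itga4, a chain of the receptor for Vcam1 and fibronectin, averaged 220.0 ± 6.46, 220.2 ± 13.0 and 656 ± 139 CPM in MitoPositive, MitoNegative and monoculture libraries (SD, n = 3 each) and fell to 0.335 of the monoculture level in MitoPositive cells. Sdc4, a syndecan that binds fibronectin, rose 3.04-fold in MitoPositive and 3.39-fold in MitoNegative cells.

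Between MitoPositive and MitoNegative cells edgeR's test called 1 gene of the 6 lists, against 0.165% of all genes. Serpine2, the protease inhibitor nexin-1, averaged 320.5 ± 50.9, 175 ± 19.6 and 19.4 ± 2.98 CPM in MitoPositive, MitoNegative and monoculture libraries (SD, n = 3 each) and was 1.83-fold higher in MitoPositive than in MitoNegative cells (log2 0.87 ± 0.134, adjusted p = 0.0464). The call was lost without MitoPositive B or C (adjusted p = 0.164 and 0.235), MitoNegative B, C or D (0.198, 0.159 and 0.0999) or monoculture B (0.0514), without both co-cultured D libraries (0.0986), with DESeq2's size factors (0.0511), with total counts (0.0532) and with no filter (0.0755). With the letter as a block, where 2.34% of all genes were called, edgeR also called 3 genes higher in MitoPositive cells: Plod2, a lysyl hydroxylase (log2 0.38 ± 0.0746, adjusted p = 0.0303), the laminin chain Lamc1 (0.36 ± 0.0508, adjusted p = 0.00915) and the filament protein Vim (0.64 ± 0.0674, adjusted p = 0.00308). It called 2 lower, Pmepa1, an inhibitor of the TGF-beta pathway (-0.56 ± 0.107, adjusted p = 0.0265), and the laminin receptor chain Itga6 (-0.46 ± 0.0759, adjusted p = 0.0163). At an unadjusted p under 0.05 without the block, the lists held 3, 1, 7, 4, 1 and 5 genes in the order given above. Over the same lists DESeq2's test called 2, 1, 4, 1, 0 and 1 and limma voom 0, 0, 2, 0, 0 and 0. The shares of all genes under these rules are not given, so these counts are a description only. Fitted without monoculture and with the block, 4, 3, 8, 7, 5 and 6 genes of the lists were called, where 18.2% of all genes were called.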

How the data were processed

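RNA was sequenced from 9 libraries, and the raw counts per gene were deposited. Per the submitters' processing notes bcl2fastq, cutadapt, STAR 2.7, featureCounts, DESeq2 and the build GRCm38 lie behind these counts; the strandedness of counting is not given in the sources used here. The 99 spike-in entries held 0 counts. The deposited annotation gives coordinates and the exonic length used for CPM per kilobase.

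The analysis ran edgeR 4.0.16 under R 4.3.3. Its filterByExpr (minimum count 10, minimum total 15) kept 15711 genes. After TMM scaling the 9 libraries were fitted by group with quasi-likelihood, leaving 6 residual degrees of freedom. Benjamini-Hochberg adjustment over all genes tested used a threshold of 0.05. The fit was also run on simulated counts with known changes, drawn independently for each library with no letter effect. That run therefore does not bear on a letter effect shared by the sorted groups. Folds over the floor, for genes with 0 monoculture counts, divide the pooled co-cultured level by 3 counts over the monoculture group. The floor covers counting error in monoculture only. Counting intervals cover counting error only.

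Residuals of same-letter libraries correlated at 0.600, 0.485 and 0.639 (B, C, D) between MitoPositive and MitoNegative, 0.397, 0.0947 and 0.242 between MitoPositive and monoculture, and 0.328, 0.203 and 0.127 between MitoNegative and monoculture. With a threshold of 0.1 the first and the last comparison were taken as paired by letter, as read from the data, not from the labels. MitoPositive against monoculture was under the threshold for letter C alone, at 0.0947. The main fit used the letter in no comparison, and the letter as a block was an alternative. Alternatives were DESeq2 1.42.0 (size factors and test), limma 3.58.1 (voom), total counts, no filter, the letter as a block, 2 groups alone and each library left out. The genes and lists were chosen with earlier results of these data known. Values per library are given for genes called between the sorted groups, detected genes called against monoculture and the 6 near-0 genes with the highest CPM, with others added for description; of each other list up to 3 called genes per direction were eligible. RefSeq promoters matched 25 of the 37 symbols.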

Additional observations from a re-analysis of the deposited data

How the results depend on the processing

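The number of the 37 genes called between MitoPositive and MitoNegative cells was 0 with DESeq2's size factors, total counts, no filter, DESeq2's test, limma voom, 2 groups alone and each library left out (0 to 0). It was 1 with the replicate block (Nt5e lower) and 3 with 2 groups alone and the replicate block (Eng and Col6a2 higher, Nt5e lower). Against monoculture it ran from 25 to 28 in MitoPositive and from 24 to 29 in MitoNegative cells with a library left out. The replicate block gave 26 and 27, though the letters of MitoPositive and monoculture were not taken as paired, for letter C alone. The summed near-0 level ran from 29.2 to 44.5 CPM in MitoPositive, 32.6 to 48.4 CPM in MitoNegative and 1.37 to 1.73 CPM in monoculture cells with a library left out. Near 0 set at under 0.1 CPM (28 genes) gave 0.463 CPM in monoculture by construction. With the replicate block 7 of 22 genes of the TGF-beta list and 7 of 24 of the integrin list were called lower in MitoPositive cells than in monoculture. Of all genes 23% were called lower in that fit. Leaving out the letter D libraries was chosen after seeing the data.

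Uncalled differences between MitoPositive and MitoNegative cells changed sign with a library left out: on the log2 scale Col1a1 ran from -0.47 to 0.26, Col1a2 from -0.63 to 0.059 and Fn1 from -0.29 to 0.40 (limma voom -0.037). Mmp14 in MitoPositive cells against monoculture, -0.01 as reported, was 0.053 with total counts, 0.014 with no filter, 0.51 with voom, 0.31 with the replicate block, 0.0050 with 2 groups alone, 0.41 with both, 1.22 without letter D and -0.48 to 1.25 with a library left out. In MitoNegative cells it ran from -0.29 to 1.44 with a library left out and was -0.11 without the co-cultured D libraries, and Pdgfrb in MitoPositive cells ran from -0.056 to 1.01. The cause was not tested. Over 94 gene results 1639 of 1786 alternatives kept direction and call, 71 lost the call, 50 gained it and 26 turned direction. Total counts and size factors moved the median of all genes by at most 0.03. The 7 genes below the filter had at most 26 counts in a group and were not tested.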
